A study of Homo sapiens with 9 samples.

Results

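The genes described here encode the factors that hold RNA polymerase II shortly after initiation and release it into elongation. The 10 genes were listed by name: NELFA, NELFB, NELFCD and NELFE (subunits of the negative elongation factor NELF), SUPT4H1 and SUPT5H (the DSIF subunits SPT4 and SPT5), SUPT6H (the elongation factor SPT6), CDK9 and CCNT1 (the kinase and cyclin T1 of P-TEFb) and HEXIM1 (its inhibitor). They are 10 of the 20046 protein-coding genes of the GENCODE annotation used. POLR2A, the largest subunit of the polymerase, was mapped by chromatin immunoprecipitation and sequencing in the human embryonic kidney line HEK293T. The 3 conditions were a control shRNA (shCtrl, genotype labelled wildtype), U2AF1 knockdown and DHX9 knockdown, each with 2 ChIP samples and 1 input sample. U2AF1 is the small subunit of the U2 auxiliary factor and DHX9 is a DNA and RNA helicase; the study concerns promoter R-loops and their relation to U2AF1. The labels do not say which shRNA sequences were used or how far either target was reduced.

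DSIF and NELF bind the polymerase soon after it leaves the start site and hold it close to the promoter. P-TEFb phosphorylates both of them and the tail of POLR2A, after which NELF leaves and DSIF travels on with the polymerase, together with SPT6. HEXIM1, with the 7SK RNA, keeps part of P-TEFb inactive, and transcription of HEXIM1 itself is known to respond to the amount of free P-TEFb.

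The data were 1 deposited peak list per condition, with 2757 peaks for the control, 1730 for U2AF1 knockdown and 4443 for DHX9 knockdown. The lists have no replicates, so no difference between them could be tested against the spread between samples, and library depth is not known from them. Fold enrichment is the authors' own value for each peak and was compared within a list only, as a rank (1 is highest) or a percentile, the percentage of peaks of the same list with a lower value. Intervals in brackets are 95% Wilson intervals of that percentage, and their width depends on the number of peaks in the list. They do not cover error of a gene's enrichment from reads, samples or peak calling, and do not measure a difference between lists. A gene had a peak when a summit lay within 1000 bp of one of its annotated transcript starts or inside the gene. Of 5 genes used by HEK293 cells, VIM had a peak in every list and KRT8, KRT18, ENO2 and NEFM had none, and of 5 markers of liver, blood and muscle 0 had a peak in any list. 

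The promoters of the 3 genes with a peak in every list, and that of the 1 gene with none, are shown first, because presence across the lists is the main result. Each run is the 250 bases before the RefSeq start (GRCh38.p14), 5′ to 3′ on the strand of the gene. Capitals mark 6 motifs on either strand. These are TATAAA for the TATA box that positions initiation, CCAAT for the box that the factor NF-Y recognises, and GGGCGG for the GC box recognised by SP1. The core GCATGCGC stands for the NRF1 motif, whose matches on both strands can overlap. The core CCGGAAG stands for the motif of ETS factors, and the core AAGATGG for that of YY1. HEXIM1 is at chr17:45148225-45148474 (plus strand), NELFB at chr9:137255077-137255326 (plus strand), SUPT4H1 at chr17:58352202-58352451 (minus strand) and NELFE at chr6:31958972-31959221 (minus strand).
HEXIM1: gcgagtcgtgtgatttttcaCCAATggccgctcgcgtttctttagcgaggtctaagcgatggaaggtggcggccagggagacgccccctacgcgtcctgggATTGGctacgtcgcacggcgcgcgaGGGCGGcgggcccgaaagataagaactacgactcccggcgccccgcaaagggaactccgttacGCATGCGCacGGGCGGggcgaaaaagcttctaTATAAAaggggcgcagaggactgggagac
NELFB: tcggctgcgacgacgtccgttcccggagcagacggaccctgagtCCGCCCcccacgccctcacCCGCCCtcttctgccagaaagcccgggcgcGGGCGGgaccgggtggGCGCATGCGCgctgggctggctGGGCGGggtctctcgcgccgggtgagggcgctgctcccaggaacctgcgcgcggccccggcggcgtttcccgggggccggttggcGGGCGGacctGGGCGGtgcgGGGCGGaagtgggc
SUPT4H1: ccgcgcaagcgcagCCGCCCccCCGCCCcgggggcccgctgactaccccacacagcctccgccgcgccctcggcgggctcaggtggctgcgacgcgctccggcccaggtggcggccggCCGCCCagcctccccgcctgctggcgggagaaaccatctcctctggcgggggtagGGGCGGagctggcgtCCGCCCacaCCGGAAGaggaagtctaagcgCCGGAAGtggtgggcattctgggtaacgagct
NELFE: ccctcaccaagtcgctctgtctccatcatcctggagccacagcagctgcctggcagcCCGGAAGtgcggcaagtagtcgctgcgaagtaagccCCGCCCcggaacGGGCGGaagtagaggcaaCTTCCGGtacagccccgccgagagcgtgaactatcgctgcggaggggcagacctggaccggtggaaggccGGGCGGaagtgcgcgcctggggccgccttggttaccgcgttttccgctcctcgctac

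Peaks were found at 6 of the 10 genes in the control list, at 3 under U2AF1 knockdown and at 8 under DHX9 knockdown. Over all protein-coding genes the same rule found a peak at 13.2% in the control list, at 7.34% under U2AF1 knockdown and at 22.2% under DHX9 knockdown. The order of the lists was thus the same for these genes as for all genes, and it followed the lengths of the lists. HEXIM1, NELFB and SUPT4H1 had a peak in all 3 lists, as did 870 (4.34%) of all protein-coding genes. NELFCD and CCNT1 had one in the control and DHX9 knockdown lists, NELFA, SUPT5H and CDK9 in the DHX9 knockdown list alone, SUPT6H in the control list alone, and NELFE in none. Of all protein-coding genes, 10.6% had a peak in the DHX9 knockdown list alone and 73.6% in no list, so the absence at NELFE was the usual state of a gene. The shares of all genes in the control list alone, or in the control and DHX9 knockdown lists only, were not counted. Nothing is therefore read from those patterns. With lists of equal length, the 1730 most significant peaks of each, the counts were 4 of the 10 genes for the control, 3 for U2AF1 knockdown and 5 for DHX9 knockdown. All protein-coding genes kept the same order at this setting, with 1694, 1472 and 1796 of 20046 genes.

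**Figure D1:**
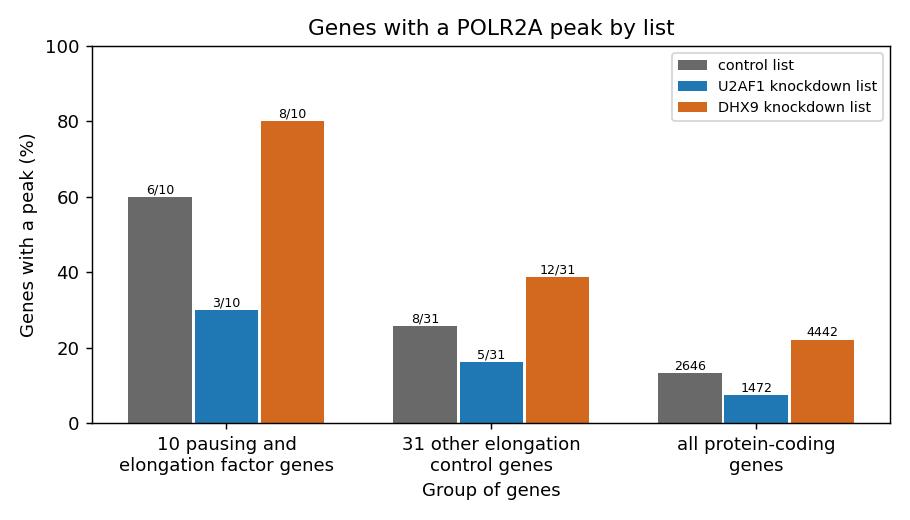
Percentage of genes with a POLR2A peak (vertical axis, %) in the 3 lists, for the 10 pausing and elongation factor genes, 31 other elongation control genes and all 20046 protein-coding genes; numbers over the bars are genes with a peak. The U2AF1 knockdown bar is the lowest and the DHX9 knockdown bar the highest in each group of these full lists, from 3 to 8 of the 10 genes; with equal numbers of peaks the 31 other genes had 4, 5 and 5.

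Of the 6 genes with a control peak, 3 also had a U2AF1 knockdown peak, against 36.5% of all protein-coding genes with a control peak. In the DHX9 knockdown list 5 of the 6 had a peak, against 76.1% of all such genes. Of the 4 genes without a control peak, 0 had a U2AF1 knockdown peak and 3 had a DHX9 knockdown peak. For all protein-coding genes without a control peak those percentages were 2.91% and 14.0%. The counts over the 6 genes and the 0 of 4 were thus near the percentages of all genes, the 3 of 4 was above it, and 4 genes are too few to read more from that. Both comparisons use the same control list.

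NELFB encodes the NELF subunit that joins the others of the complex. Its peak had rank 677 of 2757 in the control list (fold enrichment 5.13, percentile 75.4, 73.8 to 76.98), 1100 of 1730 under U2AF1 knockdown (4.26, percentile 35.4, 33.2 to 37.7) and 542 of 4443 under DHX9 knockdown (7.64, percentile 87.8, 86.8 to 88.7). The −log10 q of the peak was 2.70 under U2AF1 knockdown (list median 5.86), 11.9 for the control (7.59) and 12.0 for DHX9 knockdown (6.26). This value also depends on library depth, which is not known, so it is not compared between lists. The peaks covered the same promoter, at chr9:137254961-137255474, chr9:137255025-137255390 and chr9:137255011-137255612, and the U2AF1 knockdown peak lay wholly inside both others. Their summits did not coincide. NELFB has 1 annotated start, and the summit lay at -248 bp from it in the control list, at -1 bp under U2AF1 knockdown and at 90 bp, in the coding part of exon 1, under DHX9 knockdown. In the printed run the control summit is the third base and the U2AF1 knockdown summit the last.

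NELFCD encodes the NELF-C and NELF-D forms of a further subunit. Its control peak, chr20:58981215-58981474, had rank 995 (fold enrichment 4.59, percentile 63.8, 62.0 to 65.6). Under DHX9 knockdown the peak at chr20:58981042-58981504 had rank 799 (7.02, percentile 82.0, 80.9 to 83.1) and contained the whole control peak. It was 463 bp wide against 260 bp, and its upstream edge lay at -173 bp from that of the control peak. The summits lay 22 bp apart, at 49 and 27 bp from the nearest start. On the other strand the lncRNA ENSG00000285091 starts 155 bp from the control summit and 133 bp from the DHX9 knockdown summit. Its polymerase cannot be separated from that of NELFCD here. In the U2AF1 knockdown list the nearest summit was 92.0 kb away, at GNAS.

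NELFA, whose product also binds RNA polymerase II, had peaks in the DHX9 knockdown list only. One, at chr4:2009326-2009573, had rank 1802 (fold enrichment 5.62, percentile 59.3, 57.9 to 60.8) and its summit at -181 bp from an annotated NELFA start, or -442 bp from the canonical one. The other, at chr4:2041821-2042052 (rank 3261, percentile 26.2), entered through a far upstream NELFA start, 68 bp away, but lay 24 bp from the start of C4orf48, a neighbouring gene on the opposite strand. In the control and U2AF1 knockdown lists the nearest summit was 138.1 and 138.0 kb from the canonical start, at NSD2.

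NELFE, the RNA-binding subunit, had no peak in any list, and the nearest summit was 1013 kb away in the control and DHX9 knockdown lists (at BRD2) and 714.6 kb away in the U2AF1 knockdown list. NELFE lies in the major histocompatibility region of chromosome 6, for which hg38 holds several alternative sequences. The 100 bases before its start, the last 100 of the printed run, occurred letter for letter 6 times in the hg38 sequence file, 5 of them on alternative sequences. For each of the other 9 genes the same stretch occurred once. The peak lists contained 34, 13 and 31 peaks on alternative sequences for the control, U2AF1 and DHX9 conditions, so such sequences were among those the reads were aligned to. None of these peaks, 0 in each list, lay within 1000 bp of a NELFE copy.

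Genes with repeated promoters rarely had peaks in any list. Of 762 protein-coding genes whose 100 bases before the start had an exact copy on an alternative sequence, 1.71% had a control peak, 1.05% a U2AF1 knockdown peak and 3.02% a DHX9 knockdown peak. Of the 19284 genes without such a copy, 13.7%, 7.59% and 22.9% had one. Of 184 genes with at least 5 copies, as NELFE has, 1 had a control peak, 0 a U2AF1 knockdown peak and 1 a DHX9 knockdown peak. Windows around NELFE were set after seeing the data, and their counts grew with the width. Within 1 Mb on each side, 0 of 101 protein-coding genes had a peak in any list. Within 2 Mb, 2 of 161 had a control peak, 0 a U2AF1 knockdown peak and 3 a DHX9 knockdown peak. Within 3 Mb the counts were 5, 2 and 7 of 198 genes. BRD2, which encodes a chromatin-binding bromodomain protein, was the gene with at least 5 copies that had a peak, in the control and DHX9 knockdown lists. Whether genes with and without copies differ in other ways was not tested. The part of the copies in the absence of a NELFE peak was not tested either.

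**Figure D2:**
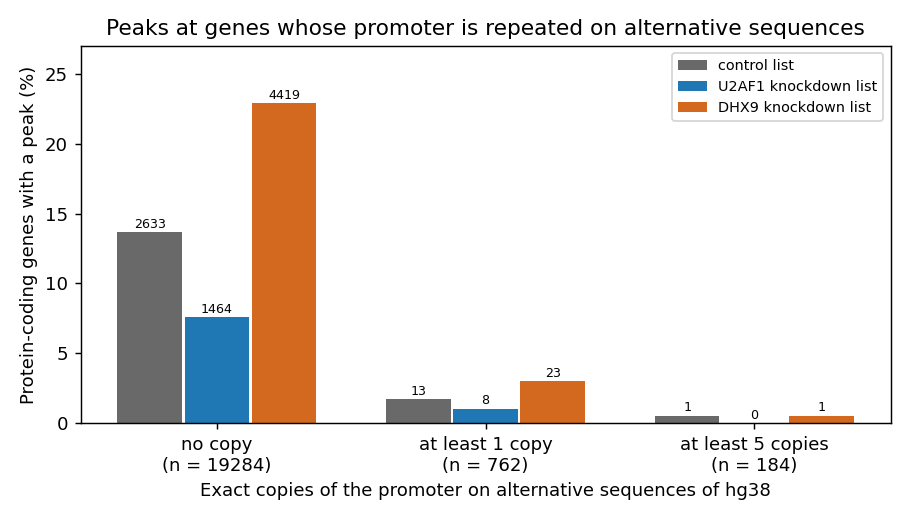
Percentage of protein-coding genes with a POLR2A peak (vertical axis, %) by the number of exact copies of the 100 bases before the start on alternative sequences of hg38; numbers over the bars are genes with a peak, and the right-hand group is part of the middle one. The percentage was 13.7%, 7.59% and 22.9% without a copy, against 1 gene, 0 genes and 1 gene of 184 with at least 5 copies.

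SUPT4H1 encodes SPT4, the small DSIF subunit. Its peak had rank 985 in the control list (fold enrichment 4.60, percentile 64.1, 62.3 to 65.9), 578 under U2AF1 knockdown (5.37, percentile 66.6, 64.3 to 68.8) and 374 under DHX9 knockdown (8.34, percentile 91.6, 90.7 to 92.4). Of the 3 genes in the U2AF1 knockdown list it stood highest. The control and U2AF1 knockdown summits were 12 bp apart, and the DHX9 knockdown summit lay 74 bp from the control summit. All 3 lay upstream of the canonical start, at -181, -169 and -107 bp, the first 2 within 41 and 53 bp of a further annotated start. The control peak was 522 bp wide, the U2AF1 knockdown peak 313 bp and the DHX9 knockdown peak 497 bp. The U2AF1 knockdown peak, chr17:58352229-58352541, lacked the 229 bp that the control peak, chr17:58352000-58352521, extended towards the gene body.

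SUPT5H encodes SPT5, the large DSIF subunit, which contacts the polymerase. Only the DHX9 knockdown list had peaks there. The one at chr19:39445441-39445660 had its summit 1 bp from an annotated start and 27 bp from the canonical one, in the noncoding part of exon 1, with rank 2964 (fold enrichment 4.70, percentile 33.3, 31.9 to 34.7). The other, chr19:39435811-39436063 (rank 3514, percentile 20.8), lay 28 bp from the start of RPS16, a ribosomal protein gene, and 269 bp upstream of the first SUPT5H start. Both were in the lower part of the list. The nearest summits in the control and U2AF1 knockdown lists were 826.8 and 878.2 kb away.

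SUPT6H, the gene of the histone chaperone SPT6, was the only gene with a peak in the control list alone. That peak, chr17:28661840-28662149, was weak, with rank 2232 (fold enrichment 3.15, percentile 19.0, 17.6 to 20.5) and a −log10 q of 1.83 where the lowest of that list was 1.31. Its summit lay at -69 bp from SUPT6H and 3 bp from the start of SDF2, which is transcribed in the opposite direction. Polymerase of SUPT6H and SDF2 cannot be told apart at this distance. Without peaks nearer to the start of another gene, an alternative chosen after seeing the data, the control list held 5 of the 10 genes and the others 3 and 8.

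CDK9, the kinase of P-TEFb, had 1 peak, in the DHX9 knockdown list, at chr9:127785985-127786253. Its rank was 1262 (fold enrichment 6.28, percentile 71.6, 70.2 to 72.9), and its summit lay 119 bp past the canonical start in the coding part of exon 1. In the control list the nearest summit was 17.0 kb away, at FPGS, and in the U2AF1 knockdown list 113.5 kb away.

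CCNT1 encodes the cyclin partner of CDK9. Its control peak, chr12:48716988-48717224, had rank 1986 (fold enrichment 3.48, percentile 27.6, 25.97 to 29.3), and its DHX9 knockdown peak, chr12:48716933-48717190, rank 742 (7.097, percentile 82.5, 81.4 to 83.6). The peaks were close in width, 237 and 258 bp, and shared 203 bp, with summits 34 bp apart. Both summits lay upstream of all annotated starts, at -113 and -79 bp from the nearest and at -404 and -370 bp from the canonical one. No U2AF1 knockdown summit lay within 240.8 kb.

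HEXIM1, the inhibitor of P-TEFb, had the highest-ranking peak of the 10 genes in the control and DHX9 knockdown lists. It had rank 506 in the control list (fold enrichment 5.54, percentile 81.6, 80.1 to 83.0), 661 under U2AF1 knockdown (5.19, percentile 61.8, 59.5 to 64.1) and 118 under DHX9 knockdown (12.0, percentile 97.3, 96.8 to 97.7). Its −log10 q was 21.7 for the control, 8.57 for U2AF1 knockdown and 29.5 for DHX9 knockdown. Position hardly varied: the peaks were chr17:45148374-45148738, chr17:45148367-45148664 and chr17:45148367-45148771, both knockdown peaks began at the same base, and the summits lay at 53, 30 and 64 bp past the only annotated start, in the noncoding part of exon 1. On the other strand the lncRNA ENSG00000276728 has a start 58 bp from the control summit, just upstream of the HEXIM1 start. From there it is transcribed away from HEXIM1, and its polymerase cannot be separated from that of HEXIM1 here. The protein-coding genes most like HEXIM1 in percentile over the 3 lists, among 800 with a start peak in each, were RPS28, NDUFA7 and ENSG00000167774, which share 1 peak (percentile 78.1 in the control list, 62.3 under U2AF1 knockdown and 96.8 under DHX9 knockdown, a summed difference of 4.52 points).

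**Figure D3:**
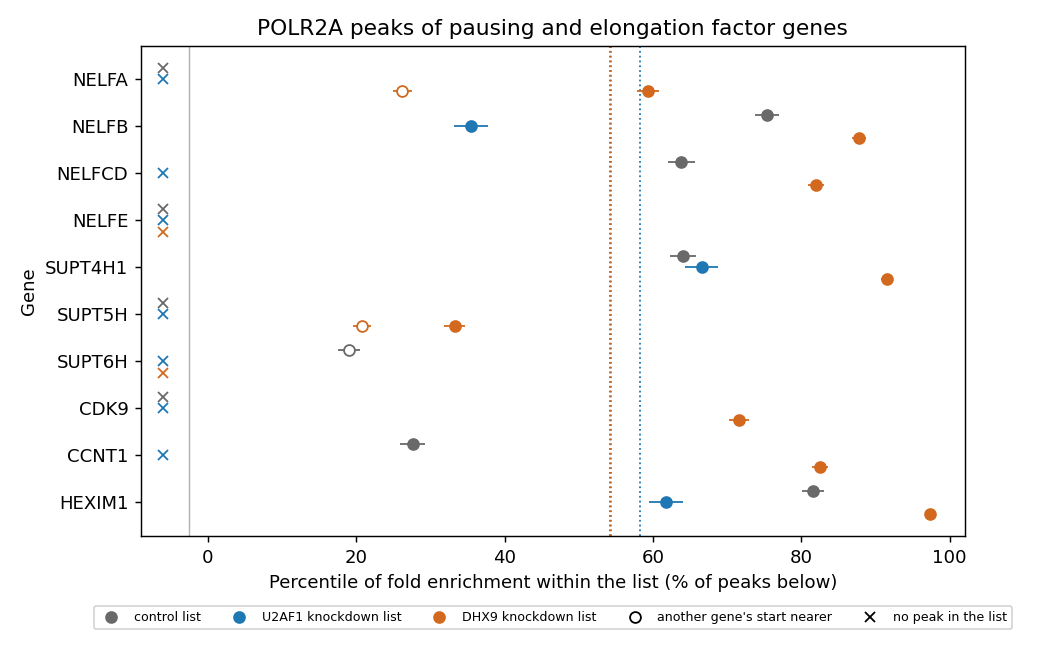
Percentile of fold enrichment within each list (horizontal axis, % of peaks below) for every peak of the 10 genes, with 95% Wilson intervals; open circles are peaks nearer to the start of another gene, crosses mark a list without a peak, and dotted lines the median start peak of all protein-coding genes. HEXIM1 reaches 97.3 in the DHX9 knockdown list, and NELFE has 3 crosses.

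The median over the genes with a start peak, taking the strongest of each, was at percentile 64.0 in the control list (6 genes), 61.8 under U2AF1 knockdown (3 genes) and 82.3 under DHX9 knockdown (8 genes). Over all protein-coding genes with a start peak it was 54.2, 58.2 and 54.4. HEXIM1 and SUPT4H1 were in the top 10% of the DHX9 knockdown list, where 9.50% of the start peaks of all genes were. In the control and U2AF1 knockdown lists 0 of these genes were in the top 10%, where 8.43% and 8.26% of the start peaks of all genes were. With 6 and 3 genes, 0 is near those shares. With equal numbers of peaks the DHX9 knockdown median was 68.6 over the 5 genes left and the control median 52.1 over the 4 left. CDK9, NELFA and SUPT5H had dropped out of the first, and CCNT1 and SUPT6H out of the second. These medians thus cover other sets of genes, and the median of all genes was not computed at this setting.

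A percentile also moves when weak peaks are added below it, so the genes were ranked again among the protein-coding genes with a start peak in both lists, a setting chosen after seeing the data. Among 1907 genes shared by the control and DHX9 knockdown lists, all 5 pausing and elongation factor genes found there stood higher under DHX9 knockdown, against 49.2% of all. CCNT1 stood at percentile 17.5 in the control and 70.0 under knockdown, SUPT4H1 at 57.7 and 84.9, HEXIM1 at 78.2 and 97.1, NELFCD at 57.4 and 69.2 and NELFB at 71.3 and 78.3. The shift of CCNT1, 52.4 points, was beyond the 90th percentile of shifts over the 1907 genes (41.9 points). The other 4, from 7.03 to 27.2 points, were not, and the median size of a shift in either direction was 21.3 points. CCNT1 started low, at 17.5, and so had more room to rise than genes that started high. The 41.9 points cover genes of every starting percentile, and CCNT1 was not compared with genes that started near it. No test of these shifts was possible with 1 list per condition.

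Against U2AF1 knockdown 894 genes were shared, of which 50.7% stood higher under knockdown. NELFB stood at 58.3 in the control and 18.3 under knockdown, HEXIM1 at 66.1 and 47.5, and SUPT4H1 at 46.3 and 53.1. The shift of NELFB, -39.9 points, did not reach the 10th percentile of shifts, -41.9 points. The shifts of the 3 genes thus differed in sign and lay within the range of most genes.

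**Figure D4:**
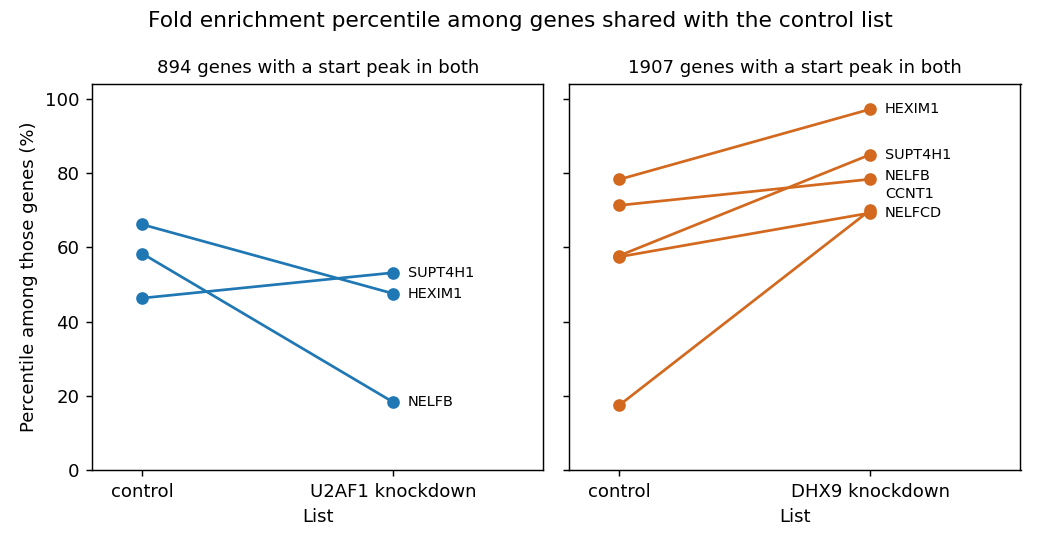
Percentile of fold enrichment (vertical axis, %) among protein-coding genes with a start peak in the control and 1 knockdown list, for the genes described here; a line joins the 2 lists of a gene. All 5 genes stand higher under DHX9 knockdown, CCNT1 at 70.0 against 17.5, and NELFB stands at 18.3 under U2AF1 knockdown against 58.3.

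Peak width differed between the lists as well. The peaks of NELFB, SUPT4H1 and HEXIM1 were narrower in the U2AF1 knockdown than in the control list, with differences (knockdown minus control) of -148, -209 and -67 bp. The same direction was common over all genes: only 27.1% of the 894 shared genes had a wider peak under U2AF1 knockdown, and the median difference was -59.5 bp. Under DHX9 knockdown 4 of 5 genes had a wider peak, with SUPT4H1 the exception, against 57.4% of the 1907 shared genes. Of the peaks of the 10 genes, 0 of 6, 0 of 3 and 0 of 10 lay in a gene body farther than 1000 bp from a start. The last count includes the peaks nearer to C4orf48 and RPS16. Over all protein-coding genes, 6.15%, 11.5% and 7.82% of the pairs of a peak and a gene were of this kind. With so few peaks 0 is near those shares, and nothing is read from it. The median distance of the summit from the nearest start was 61, 30 and 79 bp, against 63, 69 and 65 bp over all genes. From the canonical start alone the medians of the 10 genes were 128.5, 30 and 98.5 bp.

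**Figure D5:**
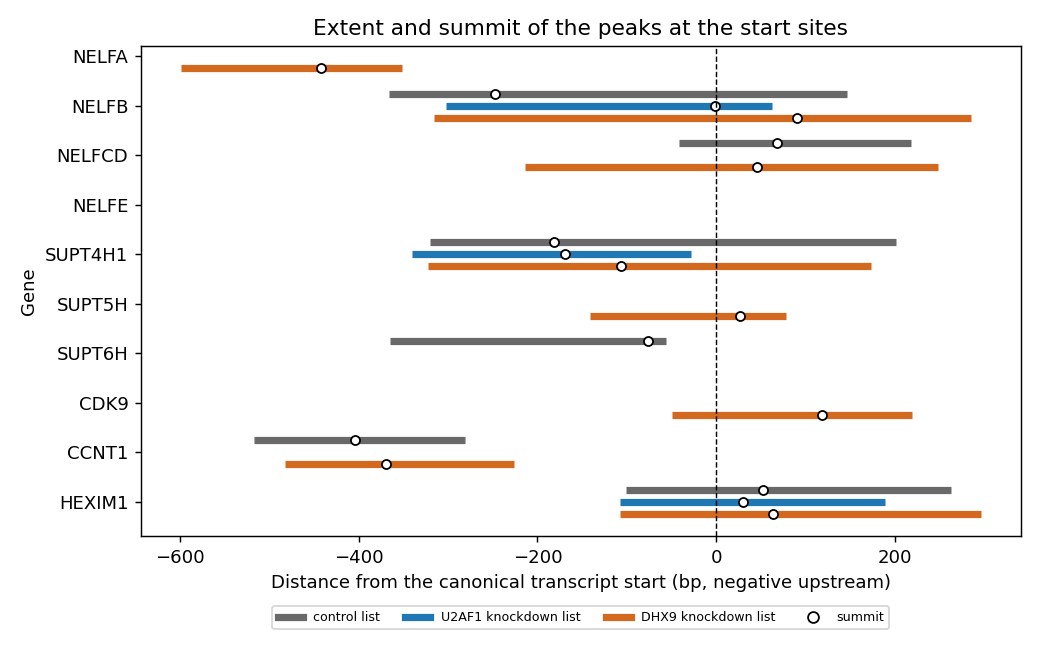
Extent (bars) and summit (circles) of the peaks by distance from the canonical transcript start (horizontal axis, bp, negative upstream), for each of the 10 genes and 3 lists; the NELFA and SUPT5H peaks nearer to C4orf48 and RPS16 lie outside the range drawn. HEXIM1 summits lie 30 to 64 bp past the start, and NELFB summits from -248 to 90 bp.

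The other genes of elongation control, 31 in a list that covers 7SK and P-TEFb partners, the super elongation complex, the PAF1 complex, histone chaperones and the kinases of the POLR2A tail, had peaks at 8 genes in the control list, 5 under U2AF1 knockdown and 12 under DHX9 knockdown. MEPCE, which caps 7SK RNA, was the 1 gene with peaks in all lists and a percentile in the top 10%: its percentiles were 92.2 in the control list, 56.8 under U2AF1 knockdown and 94.4 under DHX9 knockdown. HEXIM1 showed the same order of lists. These percentiles come from lists of unequal length, and the share of all genes with this order was not counted. With equal numbers of peaks the counts were 4, 5 and 5 of the 31, so the order of the lists seen in the full lists was lost for these genes. In no list were peaks found at 17 of the 31 genes, a smaller share than the 73.6% of all protein-coding genes. They included CCNT2, HEXIM2, LARP7 and the polymerase III gene RN7SK among the partners of P-TEFb, and ELL, MLLT1, MLLT3 and EAF1 of the super elongation complex. LEO1 of the PAF1 complex, the chaperone SUPT16H, IWS1, TCEA1, POLR2M, CDK7, MNAT1 and CCNK were also among them.

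The 10 promoters shared sequence features that did not enter their choice. All had an observed over expected CpG ratio of at least 0.6 in the 300 bases around the start, as did 67.4% of protein-coding genes, and 9 of the 10 were in the top 25% of all genes. HEXIM1 had the highest ratio, 1.17. GC skew, the excess of G over C on the coding strand divided by their sum, was computed over the first 500 bp of each gene, since R-loops are known to form where the transcribed RNA is rich in G. It was above 0 in 9 of 10 genes, against 66.6% of all, with a median of 0.211 against 0.0526. In 6 genes, SUPT4H1 (0.279), SUPT5H (0.259), HEXIM1 (0.225), NELFB (0.223), CDK9 (0.212) and SUPT6H (0.211), it was in the top 10% of protein-coding genes. NELFA was the exception at -0.339, below all but 0.439% of genes. Of these 6, SUPT4H1, HEXIM1 and NELFB had peaks in every list, SUPT5H and CDK9 under DHX9 knockdown alone and SUPT6H in the control list alone. Median skew over all protein-coding genes with a start peak was 0.0681 in the control list, against 0.0508 for genes without one. Under U2AF1 knockdown these medians were 0.0597 and 0.0521, and under DHX9 knockdown 0.0678 and 0.0490. A link between skew and the presence of a peak was not tested.

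Motifs were searched in the 250 bases before and 50 after the RefSeq start, with motifs chosen after the sequences had been seen. The GC box was found in 9 of 10 promoters, all but NELFA, and in 45.0% of 35116 promoters. NELFB held 9 copies of it. The NRF1 core was found in NELFB, NELFCD and HEXIM1, against 3.05% of all promoters, and the ETS core in NELFA, NELFE, SUPT4H1, CDK9 and CCNT1, against 10.3%. HEXIM1 alone had a TATA box (11.5% of promoters), which lay from -29 to -24 bp when the first transcribed base is counted as 0. It also had 2 CCAAT boxes, and CCNT1 had 1 (34.6% of promoters). NELFA and SUPT5H had the YY1 core (5.84%). A match describes letters and is not a measured binding site, and the genes with an NRF1 core were chosen by no measure of these lists.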

How the data were processed

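POLR2A ChIP-seq of HEK293T cells was analysed from 1 deposited narrowPeak list per condition, which the labels give for both ChIP samples of that condition. The names of the control peaks read as replicate 1, so it is not known whether 1 or both libraries entered that list. Bowtie2 2.4.5, MACS2 2.2.7.1, deepTools 3.5.1 and hg38 are named without role or order, per the submitters' processing notes. Handling of the input, read filters and pooling are not given in the sources used here. All peaks lay on sequences of the hg38 reference and 0 ended beyond them. The deposited values are a fold enrichment (ratio) and the −log10 of the p-value and of the q-value of each peak, made by the authors.

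Summits were assigned to genes of GENCODE 44 with Python 3.11.15, pandas 2.3.3 and SciPy 1.17.1, and the assignment was tested on simulated data with planted peaks. Coordinates count from 1. RefSeq promoters were found for 10 of the 10 genes. With 1 list per condition no test between conditions was made. Named were all 10 genes, other elongation control genes in every list with a percentile in the top 10% or in no list (1 of these is not reported here), and the 3 genes most like the member of highest median percentile. The genes, lists and settings were chosen with earlier results of these data known. Alternatives were a −log10 q of at least 5, equal numbers of peaks, other start windows (500 and 2000 bp), overlap in place of summits, starts of protein-coding transcripts, rank by −log10 p, chromosomes 1 to 22 and X, peaks at protein-coding starts, the canonical start and 2 settings added later.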

Additional observations from a re-analysis of the deposited data

How the results depend on the processing

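U2AF1 knockdown had the fewest of the 10 genes with a peak and DHX9 knockdown the most under every setting tried. This order is not particular to the 10 genes. All protein-coding genes had it too in the full lists, with equal numbers of peaks, with the stricter −log10 q and with both other start windows. The remaining settings were not counted over all genes. Equal numbers of peaks, 1730 per list, gave 5 of the 10 genes in the DHX9 knockdown list, 1694 and 1796 protein-coding genes in the control and DHX9 knockdown lists, 4, 5 and 5 other elongation control genes in the control, U2AF1 and DHX9 lists, and control and DHX9 knockdown median percentiles of 52.1 and 68.6. With a −log10 q of at least 5 there were 847 protein-coding genes in the U2AF1 knockdown list, 2950 in the DHX9 knockdown list and 5 other elongation control genes in the control list. SUPT5H then had only the peak nearer to RPS16. Ranking by −log10 p moved the median percentiles to 62.2 for the control, 68.7 with U2AF1 knocked down and 74.6 with DHX9 knocked down, and ranking among peaks at protein-coding starts to 61.2 in the control and 54.5 in the U2AF1 knockdown list. Distances from the canonical start had medians of 128.5 bp in the control and 98.5 bp in the DHX9 knockdown list. The cause of these moves was not tested, except that equal numbers and a stricter threshold leave fewer peaks by construction. Of the other values for single genes, 52 left their interval and 27 did not. No paired analysis was possible because only 1 list represents a condition, which also left no replicate to leave out. Library depth is unknown, so absence from a list can also mean too few reads.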

Other observations

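The following genes were singled out after their values were seen. Each percentile is within its own list; the lists differ in length (1730 peaks for U2AF1 knockdown, 2757 for the control and 4443 for DHX9 knockdown) and have no replicates, and no ranking over lists of equal length was made for these genes, so the values of a gene are given side by side with no comparison. CDK12, which phosphorylates the tail during elongation, stood at percentile 79.9 in the U2AF1 knockdown list, 40.3 in the control list and 10.5 in the DHX9 knockdown list. Its relative CDK13 stood at 54.6, 12.9 and 70.3 in the same lists. AFF1, a scaffold of the super elongation complex, was at 87.4 under U2AF1 knockdown, 77.0 in the control list and 70.0 under DHX9 knockdown. AFF4, the related scaffold, had no control peak and stood at 61.4 under U2AF1 knockdown and 87.8 under DHX9 knockdown.

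Of the PAF1 complex, which travels with elongating polymerase, 3 of 6 genes had a control peak, 0 a U2AF1 knockdown peak and 4 a DHX9 knockdown peak, against 13.2%, 7.34% and 22.2% of all protein-coding genes in these lists of unequal length. A count of 0 of 6 is near the 7.34%. RTF1 had percentiles of 14.3 in the control and 73.4 in the DHX9 knockdown list, and SKIC8 had 61.2 and 36.8. CDC73 and CCNH had a peak in the control list alone, a pattern whose share over all genes was not counted. Peaks in the DHX9 knockdown list alone were found at 5 of the 31 genes: ELL2, PAF1, CTR9, SSRP1 and CHD1. Of all protein-coding genes 10.6% had this pattern, and nothing more is read from the 5 genes.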
